A study of Mus musculus with 9 samples.

Results

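In total 10 genes of the heat shock chaperone system were followed across 9 RNA-seq libraries of sorted mouse embryonic kidney cells. They were Hspa1a, Hspa1b, Hspa8, Hsph1, Hsp90aa1, Dnajb1, Hspb1, Hspd1, Hspe1 and Hsf1. All 10 were listed by gene name, with earlier results of these data known, and were found among 24539 genes with a normalized count in the deposited table, and all 10 were within the 19656 genes tested. The study deleted Tsc1, which encodes an inhibitor of the growth kinase complex mTORC1, in the nephron lineage and gave rapamycin, an inhibitor of that complex. The mutant rapamycin group held 3 libraries of Six2 Cre Tsc1 fl/fl embryos whose dams were injected intraperitoneally with 0.2 mg/kg rapamycin on alternate days over E12.5 to E16.5. The mutant vehicle group held 3 libraries of the same genotype, and the control vehicle group held 3 libraries of Tsc1 fl/fl embryos without the Cre, titled wild type. Both of these groups received vehicle, given as DMSO. All embryos were of the CD1 strain and carried floxed Tsc1, and kidneys were taken at E18.5. Single cells were released with collagenase and Dispase and sorted for CD133 (prominin-1) to isolate proximal tubule cells.

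The Six2 Cre transgene acts in nephron progenitors and their descendants, so other kidney cells keep Tsc1. Control embryos given rapamycin were not among the groups, so an effect of rapamycin alone and an effect that needs the mutation cannot be told apart. The labels number the replicates but do not say whether they were single or pooled embryos or different litters, and the p-values measure only the spread between these samples.

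Heat shock proteins bind unfolded or misfolded proteins and either hold them or help them fold. The HSP70 proteins do this with J-domain partners, which deliver the client, and with HSP110 proteins, which exchange the bound nucleotide. Most of these genes are controlled by the transcription factor HSF1, which in stressed cells binds arrays of inverted GAA repeats near their starts. Hspa1a and Hspa1b, the classical inducible HSP70 genes, are also known to rise in many cell types when tissue is dissociated.

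The upstream DNA of the inducible pair is shown because these genes gave the largest differences among the 10. Both lie on chromosome 17 on the minus strand, Hspa1a at chr17:34969190-34972156 and Hspa1b at chr17:34956436-34959238. The 250 bases before each start come from RefSeq (GRCm38.p6), at chr17:34972157-34972406 for Hspa1a and chr17:34959239-34959488 for Hspa1b, printed 5′ to 3′ on the gene's strand. The 2 windows were identical at 247 of 250 bases, and neither overlapped an annotated exon. Capitals mark inverted GAA and TTC repeats.
Hspa1a: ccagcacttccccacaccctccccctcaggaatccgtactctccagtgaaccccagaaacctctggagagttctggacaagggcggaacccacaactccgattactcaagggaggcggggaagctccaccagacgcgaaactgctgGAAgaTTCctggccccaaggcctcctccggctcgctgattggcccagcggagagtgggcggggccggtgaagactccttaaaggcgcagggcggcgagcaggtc
Hspa1b: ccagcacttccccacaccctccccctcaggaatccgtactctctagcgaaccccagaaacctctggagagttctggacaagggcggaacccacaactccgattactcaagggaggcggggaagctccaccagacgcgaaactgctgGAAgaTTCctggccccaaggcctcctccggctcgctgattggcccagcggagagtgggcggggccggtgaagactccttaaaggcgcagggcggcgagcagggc
A contrasting stretch comes from upstream of Hspe1, the only searched member whose window held an exact longer array. All 250 bases of that window lie in annotated exons of Hspd1 and Hspe1. The 30 bases printed lie at chr1:55088053-55088082 on the plus strand, 95 to 66 bases before the Hspe1 start.
Hspe1: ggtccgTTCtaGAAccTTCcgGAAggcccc

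RefSeq listed a start for 7 of the 10 genes (Hspa1a, Hspa1b, Hsph1, Dnajb1, Hspb1, Hspd1 and Hspe1), and the window at the start nearest to the annotated one was searched. The short motif was GAANNTTC or TTCNNGAA, each of which reads the same on both strands, with overlapping matches counted. It was found in 5 of the 7 windows and in 12.8% of 32851 listed mouse starts. Hspa1a and Hspa1b each held 1 match, both at positions -104 to -97, where -1 is the base just before the start. Hsph1 held 1 match at -33 to -26, and Hspb1 held 2 matches at -117 to -110 and -97 to -90. The longer motif, 3 alternating units written GAANNTTCNNGAA or TTCNNGAANNTTC, each the reverse complement of the other, was found only in the Hspe1 window among the 7, and in 0.466% of the 32851 starts. Its overlapping matches there spanned -89 to -72. Hspe1 and Hspd1 are transcribed away from each other and their annotated ends overlap, so the same array also lies before another listed start of Hspd1. No match of either motif was present in the Dnajb1 window or at the nearest start of Hspd1.

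Library totals ran from 23372093 to 32669791 counts. The share of Gm42418, a predicted gene that overlaps a ribosomal RNA repeat, was 2.80% in rapamycin 2, 5.18% in control 1 and 0.425% to 1.42% in the others. Tsc1 counts do not check the deletion, since reads outside the floxed part can remain. They averaged 1584 ± 89.0 in mutant rapamycin, 1647 ± 90.7 in mutant vehicle and 1742 ± 301 in control vehicle libraries (SD, n = 3 each). Controls lacked the Six2 Cre, so an effect of the transgene on Six2 counts and an effect of Tsc1 loss cannot be told apart. Six2 averaged 4465 ± 521 in mutant rapamycin, 3355 ± 479 in mutant vehicle and 1109 ± 58.7 in control vehicle libraries. Prom1, which encodes the sorted surface protein, averaged 2634 ± 164, 3069 ± 269 and 2729 ± 313 in that order. All 12 proximal tubule markers were present in all 9 libraries, but so were all 10 stromal and mural markers, whose summed normalized count of 128502 to 245392 was above the proximal tubule sum of 20179 to 45537. These sums are not scaled by transcript length, and the stromal list holds collagen genes of high count (Col3a1, 83053 in rapamycin 1). They therefore do not measure the shares of cell types. The libraries labelled as proximal tubule cells held marker RNA of other cell types as well. Fewer cells of a type and less RNA per cell cannot be told apart.

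Rapamycin treatment of the mutants was accompanied by higher RNA of both inducible HSP70 genes and of their J-domain partner, while the other 7 genes were not called. Against mutant vehicle, 3 of the 10 rose and 0 fell at an adjusted p under 0.05, by limma across all genes. Of all genes tested, 0.244% were called higher and 0.056% lower in this comparison. The median log2 fold change of the 10 was 0.13, against -0.01 over all genes. Against control vehicle, the same 3 rose and 0 fell, where 2.3% of all genes were called higher and 0.941% lower. The 2 comparisons share the rapamycin libraries. Between mutant and control vehicle libraries 0 of the 10 were called by limma and 0 by limma-voom, with 0 below an unadjusted p of 0.05, where 1.05% of all genes were called higher and 0.366% lower.

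**Figure D1:**
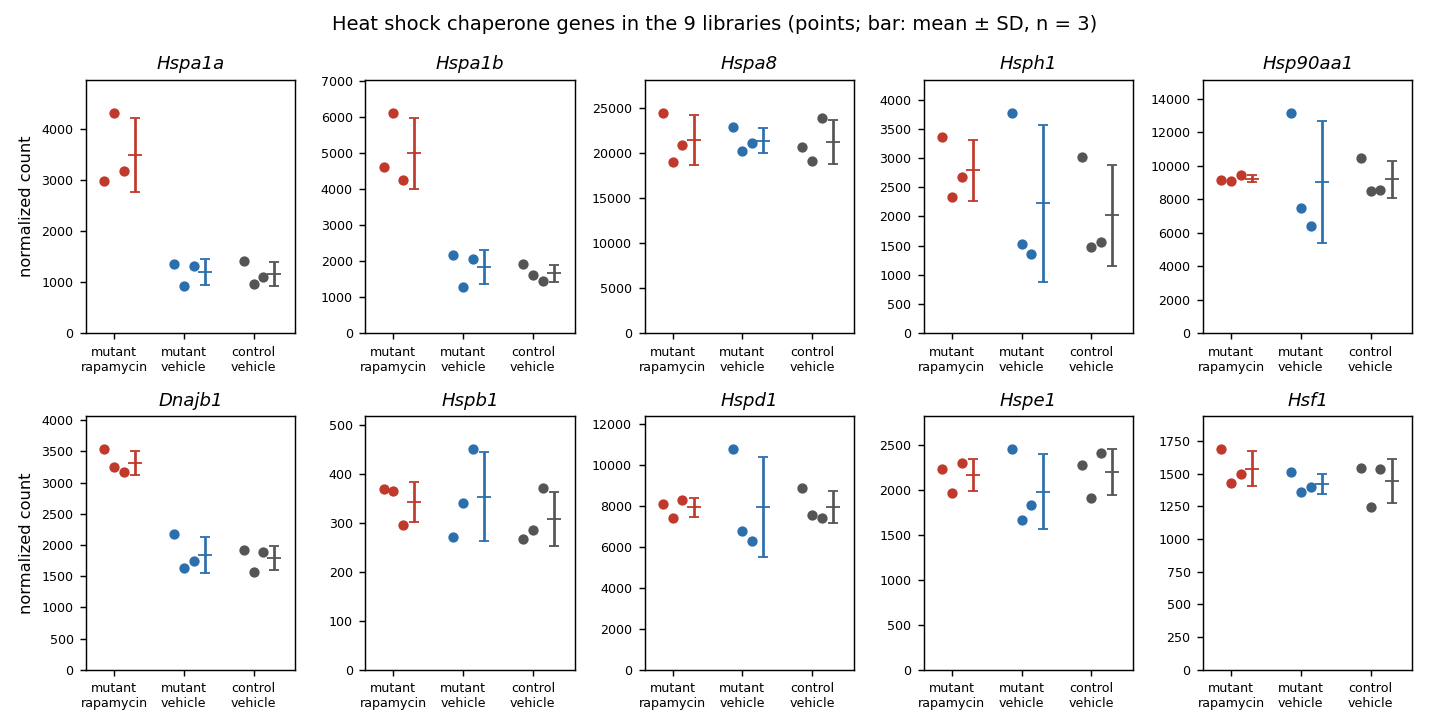
Normalized counts (y axis, linear from 0) of each of the 10 genes in the 3 libraries of each group, mutant rapamycin, mutant vehicle and control vehicle from left to right, with the mean ± SD (n = 3) beside the points. The rapamycin points of Hspa1a, Hspa1b and Dnajb1 lie above all 6 vehicle points, though the share of all tested genes that separate so was not counted. Mutant 1 stands above the other mutant vehicle libraries for Hsph1, Hsp90aa1 and Hspd1.

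Hspa1a, an inducible cytosolic HSP70, had 2977, 4327 and 3188 normalized counts in mutant rapamycin libraries, 1365, 914 and 1314 in mutant vehicle libraries, and 1414, 963 and 1100 in control vehicle libraries. All 3 rapamycin libraries lay above all 6 vehicle libraries, with rapamycin 2 highest, and the vehicle groups overlapped. The share of all tested genes that separate in this way was not counted, so this and the like separation of Hspa1b and Dnajb1 have no background. The log2 fold change was 1.55 ± 0.20 (SE) against mutant vehicle, a 2.92-fold difference with a 95% interval of 2.15 to 3.98 (limma, adjusted p = 0.0128). It was 1.59 ± 0.20 against control vehicle (limma, adjusted p = 0.00241) and 0.04 ± 0.20 in mutant vehicle against control vehicle (limma, adjusted p = 0.985).

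Hspa1b, which encodes a nearly identical HSP70 protein, had 4602, 6109 and 4258 normalized counts in mutant rapamycin libraries, 2156, 1289 and 2061 in mutant vehicle libraries, and 1912, 1598 and 1451 in control vehicle libraries. The rapamycin libraries again lay above all vehicle libraries, and rapamycin 2 and mutant 2 were the highest and lowest of the 9 for both genes, 4.73-fold apart for Hspa1a and 4.74-fold for Hspa1b. The log2 fold change was 1.46 ± 0.21 against mutant vehicle, or 2.75-fold with a 95% interval of 2.01 to 3.77 (limma, adjusted p = 0.0181). Against control vehicle it was 1.58 ± 0.21 (limma, adjusted p = 0.0028), and mutant vehicle against control vehicle gave 0.12 ± 0.21 (limma, adjusted p = 0.951).

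Reads of this pair can be hard to assign, and how the authors' counting treated reads that match several genes is not given in the sources used here. Of the 75-base windows in Hspa1a transcripts (GENCODE M21), 52.7% were also found in Hspa1b, and 55.8% of those of Hspa1b in Hspa1a, so the split between them is uncertain. The ratio of Hspa1b to Hspa1a normalized counts stayed between 1.34 and 1.55 in mutant rapamycin libraries, 1.41 and 1.58 in mutant vehicle libraries, and 1.32 and 1.66 in control vehicle libraries. Per kilobase of exon, the summed level of both genes was 2645, 3638 and 2593 in mutant rapamycin libraries, 1229, 768 and 1178 in mutant vehicle libraries, and 1159, 895 and 888 in control vehicle libraries. The sum separated the rapamycin libraries in the same way as each gene did. Gm20481, a predicted gene annotated on the opposite strand within Hspa1a, had 142, 142 and 97.2 normalized counts in mutant rapamycin libraries against 37.3, 32.7 and 44.6 in mutant vehicle libraries. It rose with Hspa1a (log2 fold change 1.70 ± 0.24, limma adjusted p = 0.0181, called in 6 of 9 fits that left out 1 library), and because the sources used here do not give how the counting treated strand, reads of Gm20481 and Hspa1a cannot be told apart.

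Dnajb1, an HSP40 that delivers clients to HSP70, had 3531, 3242 and 3169 normalized counts in mutant rapamycin libraries, 2173, 1625 and 1737 in mutant vehicle libraries, and 1917, 1565 and 1881 in control vehicle libraries. The lowest rapamycin library was above the highest vehicle library. Dnajb1 shared none of its 75-base windows with another gene. The log2 fold change was 0.85 ± 0.13 against mutant vehicle, or 1.81-fold with a 95% interval of 1.47 to 2.22 (limma, adjusted p = 0.0261). It was 0.89 ± 0.13 against control vehicle (limma, adjusted p = 0.00608) and 0.04 ± 0.13 in mutant vehicle against control vehicle (limma, adjusted p = 0.979).

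The calls against mutant vehicle depended on single libraries. The count of 3 called genes was 0 without mutant 2, 0 without rapamycin 2, 1 (Hspa1a) without rapamycin 1 and 1 (Hspa1a) without both control 1 and rapamycin 2, and without rapamycin 2 limma called 0 of all genes. Hspa1a was called in 7, Hspa1b in 6 and Dnajb1 in 4 of the 9 fits that left out 1 library, and the log2 fold changes in those fits ran from 1.36 to 1.65 for Hspa1a, 1.23 to 1.60 for Hspa1b and 0.77 to 0.98 for Dnajb1. Against control vehicle all 3 were called in all 9 such fits. The authors' deposited table gave log2 fold changes of 1.55 for Hspa1a (adjusted p = 2.62e-09), 1.44 for Hspa1b (adjusted p = 8.86e-08) and 0.84 for Dnajb1 (adjusted p = 1.42e-05) against mutant vehicle. The lowest adjusted p of the other 7 genes in the authors' deposited table for that comparison was 0.950, for Hsf1.

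**Figure D2:**
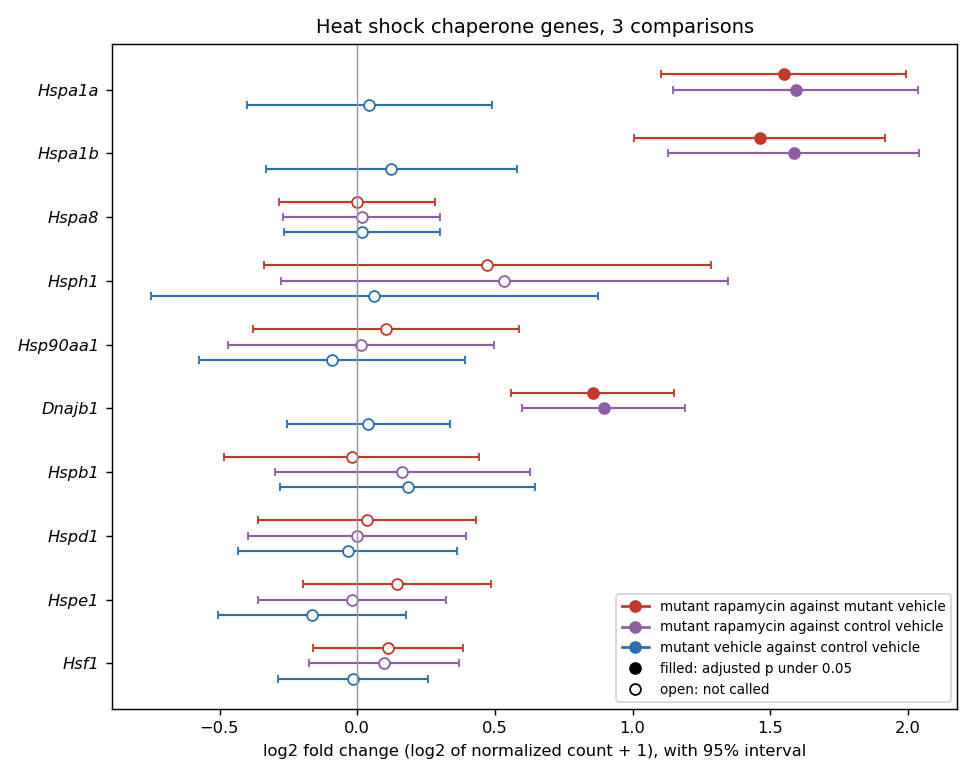
Log2 fold change (x axis, on the scale of log2 of the normalized count plus 1) with its 95% interval for the 10 genes in each of the 3 comparisons, where filled points have an adjusted p under 0.05. Filled points appear for Hspa1a, Hspa1b and Dnajb1 in both rapamycin comparisons, and the interval of Hsph1 is the widest.

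The constitutive HSP70 gene Hspa8, whose product HSC70 folds new proteins in unstressed cells, was not called in any comparison. It had 24445, 18988 and 20858 normalized counts in mutant rapamycin libraries, 22860, 20148 and 21062 in mutant vehicle libraries, and 20621, 19055 and 23821 in control vehicle libraries. The 3 groups overlapped, and the highest and lowest libraries were both of the rapamycin group. The log2 fold change against mutant vehicle was -0.00095 with a 95% interval of -0.28 to 0.28 (limma, adjusted p = 0.999). Per kilobase of exon, Hspa1a and Hspa1b together made up 31.8%, 45.2% and 34.8% of the level summed over these 2 genes and Hspa8 in mutant rapamycin libraries. The share was 18.8%, 14.1% and 19.4% in mutant vehicle libraries and 19.5%, 16.8% and 13.8% in control vehicle libraries.

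Hsph1, the HSP110 that exchanges nucleotide on HSP70, had the largest SD relative to its mean of the 10 genes in both vehicle groups, though not in the rapamycin group. It had 3362, 2334 and 2674 normalized counts in mutant rapamycin libraries, 3777, 1526 and 1362 in mutant vehicle libraries, and 3020, 1470 and 1556 in control vehicle libraries. In each group the library numbered 1 was the highest, and the groups overlapped through mutant 1 and control 1. The log2 fold change was 0.47 ± 0.37 against mutant vehicle (limma, adjusted p = 0.696) and 0.53 ± 0.37 against control vehicle (limma, adjusted p = 0.508), with 95% intervals of -0.34 to 1.28 and -0.28 to 1.35. Without mutant 1 the first was 0.94 (limma, adjusted p = 0.133), and without control 1 the second was 0.87 (limma, adjusted p = 0.194).

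Hsp90aa1, the stress-responsive cytosolic HSP90, had 9126, 9097 and 9460 normalized counts in mutant rapamycin libraries, 13167, 7498 and 6391 in mutant vehicle libraries, and 10450, 8511 and 8574 in control vehicle libraries. The rapamycin libraries lay inside the range of both vehicle groups, with mutant 1 highest of all 9 and mutant 3 lowest. The log2 fold change against mutant vehicle was 0.11 with a 95% interval of -0.38 to 0.59 (limma, adjusted p = 0.915), and without mutant 1 it was 0.41 (limma, adjusted p = 0.156). Of the 75-base windows of Hsp90aa1, 42.8% were shared with other genes, mostly with Gm12346, so part of its count is uncertain.

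Hspd1 and Hspe1 encode the mitochondrial chaperonin HSP60 and its lid HSP10 and are neighbours on chromosome 1. Hspd1 had 8084, 7407 and 8319 normalized counts in mutant rapamycin libraries, 10772, 6805 and 6319 in mutant vehicle libraries, and 8866, 7553 and 7441 in control vehicle libraries. Hspe1 had 2239, 1970 and 2305 in mutant rapamycin libraries, 2456, 1671 and 1834 in mutant vehicle libraries, and 2278, 1917 and 2421 in control vehicle libraries. Both genes had their highest value in mutant 1, and their groups overlapped. Against mutant vehicle the log2 fold change was 0.03 for Hspd1 (95% interval -0.36 to 0.43) and 0.14 for Hspe1 (-0.20 to 0.49), neither called by limma. The array of GAA repeats printed for Hspe1 had no exact match in the inducible HSP70 windows, and inexact arrays were not searched. This array lies before the Hspe1 start but inside the annotated ends of Hspd1, whose nearest start had no match. Neither gene was called in any comparison, and the part of such arrays in the rise of the inducible HSP70 genes was not tested. The level of Hspd1 per kilobase was at least 2.01 times that of Hspe1 in each mutant rapamycin library, 1.92 to 2.45 times in mutant vehicle libraries and 1.72 to 2.20 times in control vehicle libraries.

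Hspb1, a small heat shock protein that holds unfolded clients, had 369, 365 and 297 normalized counts in mutant rapamycin libraries, 271, 341 and 451 in mutant vehicle libraries, and 267, 286 and 372 in control vehicle libraries. It was highest in mutant 3, where Hsph1, Hsp90aa1 and Hspd1 were at their lowest, and 46.4% of its 75-base windows were shared with Hsp25-ps1. Hsf1, the transcription factor itself, had 1687, 1430 and 1501 normalized counts in mutant rapamycin libraries, 1511, 1360 and 1396 in mutant vehicle libraries, and 1546, 1249 and 1536 in control vehicle libraries. The groups overlapped for both genes. Against mutant vehicle the log2 fold change of Hspb1 was -0.02 (95% interval -0.48 to 0.44) and that of Hsf1 was 0.11 (-0.16 to 0.38), neither called by limma. The RNA level of Hsf1 does not measure the activity of its protein.

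Between mutant and control vehicle libraries, the log2 fold changes of the 10 genes ran from -0.16 for Hspe1 to 0.18 for Hspb1. The widest 95% interval, of Hsph1, was -0.75 to 0.87, and the intervals of Hspa1a and Hspa1b were -0.40 to 0.49 and -0.33 to 0.58. The vehicle groups overlapped for all 10, but the share of all tested genes that overlap was not counted, so this cannot be set against a background. With the replicate number as a block, a pairing that the labels do not give, 0 of the 10 were called as well.

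**Figure D3:**
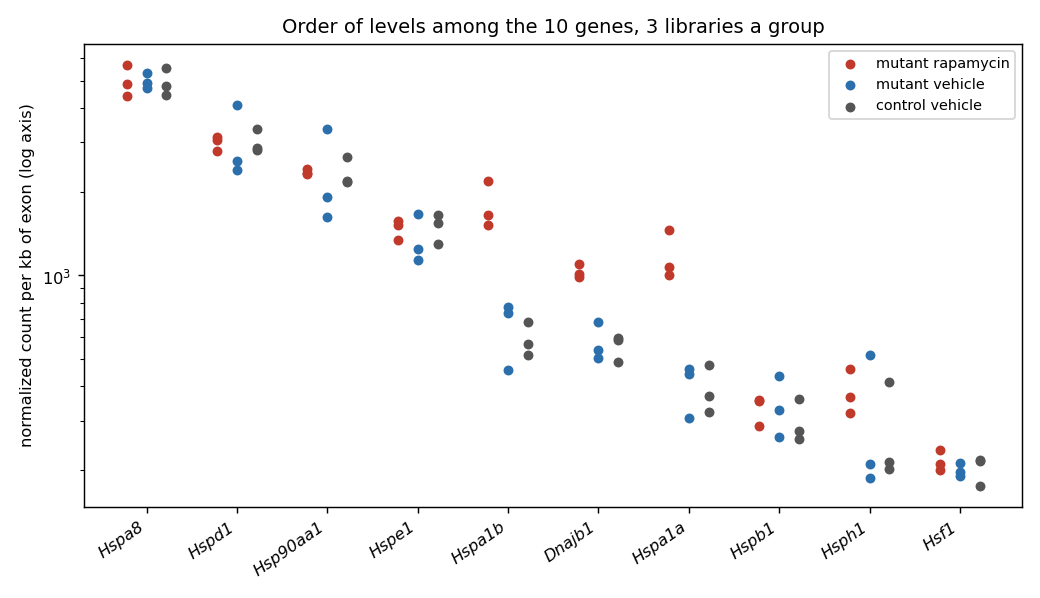
Normalized count per kilobase of exon (log axis) of the 10 genes in all 9 libraries, ordered by their mean, with mutant rapamycin, mutant vehicle and control vehicle libraries from left to right at each gene. Hspa8 is the highest throughout, and Hspa1b lies above Hspe1 in rapamycin 1 and rapamycin 2 but below it in rapamycin 3 and all 6 vehicle libraries.

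By level per kilobase of exon over all 9 libraries the order was Hspa8 (4956), Hspd1 (3010), Hsp90aa1 (2325), Hspe1 (1439), Hspa1b (1008), Dnajb1 (723), Hspa1a (658), Hspb1 (325), Hsph1 (322) and Hsf1 (207). In control vehicle libraries neighbours overlapped for Hspa1b and Dnajb1, and from Hspa1a through Hspb1 and Hsph1 to Hsf1, while the other neighbouring pairs did not overlap. Hspa1b reached 1780 ± 351 in mutant rapamycin libraries, against 655 ± 170 in mutant vehicle and 590 ± 84.0 in control vehicle libraries (SD, n = 3 each). In the rapamycin group it overlapped Hspe1, at 1473 ± 120, which it did not in either vehicle group.

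Likeness of pattern was measured over the 9 libraries as the root mean square difference of centred log2 values, among 13906 genes with a mean of at least 50. The gene most like Hspa1a was Hspa1b (0.12), followed by Jun (0.15) and Smoc2 (0.20). Hspa1b holds 52.7% of the 75-base windows of Hspa1a, so shared reads can add to the likeness of this pair. For Hspa1b, Hspa1a was followed by Jun (0.13) and Maff (0.22). Jun, an immediate early transcription factor, had 11760, 13489 and 11265 normalized counts in mutant rapamycin libraries, 5661, 3893 and 4949 in mutant vehicle libraries, and 5527, 4259 and 3951 in control vehicle libraries. For Hspa8 the nearest genes were Gm15459 (0.039), Cnpy4 (0.050) and Cnot3 (0.051), and Gm15459 is a processed pseudogene that holds 30.2% of the 75-base windows of Hspa8. For Hsp90aa1 they were Armc1 (0.052), Hspd1 (0.080) and Nudt5 (0.083).

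Immediate early genes, which are transcribed within minutes of many stimuli and are known to respond to enzymatic dissociation, rose beside the inducible HSP70 genes. Of 26 listed genes, 11 rose and 0 fell against mutant vehicle, with 26 positive log2 fold changes and a median of 0.94, against -0.01 over all genes. Nr4a1, an orphan nuclear receptor, had 4469, 3974 and 3199 normalized counts in mutant rapamycin and 1565, 1517 and 1485 in mutant vehicle libraries. Its log2 fold change was 1.34 ± 0.14, that of the transcription factor Egr1 was 1.63 ± 0.18 and that of Fos, a partner of Jun, was 1.94 ± 0.22 (limma, adjusted p = 0.00508 for each). The count of 11 was 2 without mutant 2 and 0 without rapamycin 2.

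Against control vehicle 19 of the 26 rose and 0 fell, with a median of 1.16. These were led by Zfp36, which destabilizes inflammatory mRNAs (1.73 ± 0.14, limma adjusted p = 0.000104), the antiproliferative gene Btg2 (2.02 ± 0.17, limma adjusted p = 0.000115) and Nr4a1 (1.47 ± 0.14, limma adjusted p = 0.000298). The count of 19 was 12 without rapamycin 2 and 12 without control 2. In mutant vehicle against control vehicle limma called 0 and limma-voom 0 (7 below an unadjusted p of 0.05). With the replicate block in the fit of all 9 libraries 1 was called, Btg2 (0.66, limma adjusted p = 0.0354). In fits of these 2 vehicle groups alone 8 were called with the block and 0 without it, and Btg2 passed with the block (limma, adjusted p = 0.00146). Without control 1, and with no block, 2 were called. The summed level of the list was 101198 to 138481 normalized counts in mutant rapamycin, 50663 to 56915 in mutant vehicle and 48328 to 51833 in control vehicle libraries. The part of dissociation in the rise of Hspa1a, Hspa1b and Dnajb1 was not tested.

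**Figure D4:**
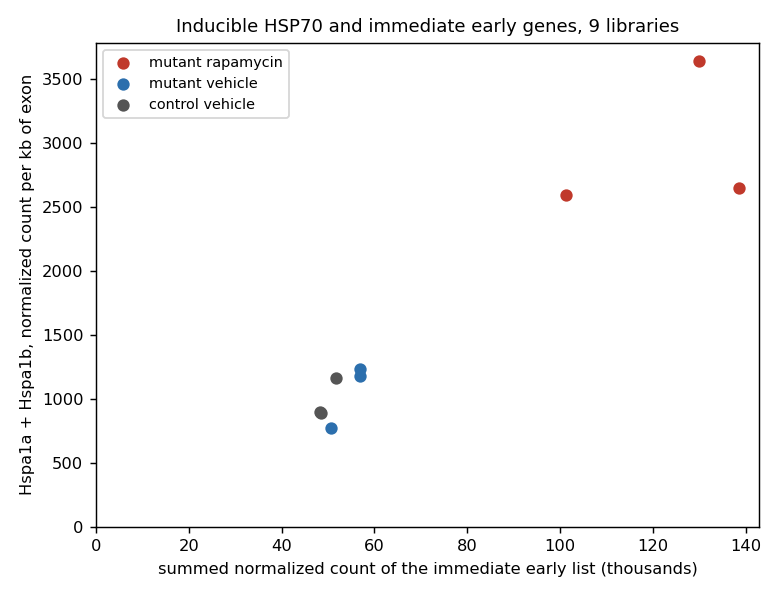
Summed level of Hspa1a and Hspa1b per kilobase of exon (y axis) against the summed normalized count of the 26 immediate early genes (x axis, in units of 1000), 1 point a library. The 3 rapamycin libraries stand apart from the 6 vehicle libraries on both axes, so the 9 points form separate groups.

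Markers of other cell types also differed in the rapamycin libraries in which the inducible HSP70 genes rose. Against mutant vehicle, 4 of 8 collecting duct markers and 1 of 10 stromal and mural markers rose, and 1 of 8 podocyte markers fell. In mutant vehicle against control vehicle, 4 of 8 collecting duct and 2 of 8 loop and distal tubule markers fell. There 4 of 8 nephron progenitor and 1 of 12 proximal tubule markers rose. On leaving out 1 library these counts ran from 1 to 4, 0 to 2, 3 to 4 and 0 to 1 in that order. Summed stromal markers were 192957 to 245392 normalized counts in mutant rapamycin, 128502 to 145729 in mutant vehicle and 137344 to 153111 in control vehicle libraries. Summed collecting duct markers were 5991 to 6274, 2892 to 3248 and 4470 to 5667 in that order, and summed podocyte markers were 12468 to 15411, 18534 to 19416 and 16943 to 19359. Against mutant vehicle, leaving out 1 library gave 0 to 5 called collecting duct, 0 to 3 stromal and 0 to 2 podocyte markers. All 3 lists had 0 without rapamycin 2. No marker of these 3 lists was at 0 in any library. Of the other lists against mutant vehicle, limma and limma-voom called 0 markers. Endothelial markers had a median of 0.45 (7 of 8 positive, 5 below an unadjusted p of 0.05) and leukocyte markers a median of -0.56 (0 of 10 positive, 4 below it). Summed leukocyte markers were 17436 to 23748 normalized counts in mutant rapamycin, 19857 to 42026 in mutant vehicle and 16968 to 22118 in control vehicle libraries. For proximal tubule, nephron progenitor, loop and distal tubule, erythroid and skeletal muscle markers, 5, 3, 1, 1 and 1 were below an unadjusted p of 0.05.

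Against control vehicle, where the 3 heat shock genes were called in every fit that left out 1 library, markers of more cell types were called. Of the proximal tubule markers 4 of 12 rose, with 4 of 8 nephron progenitor, 4 of 10 stromal and mural, 2 of 8 collecting duct, 2 of 8 endothelial and 1 of 6 tested skeletal muscle markers. The muscle marker was Des (1.23 ± 0.21, limma adjusted p = 0.0118), while the 6 had a median of -0.055 with 3 positive log2 fold changes. Podocyte markers fell in 3 of 8 cases, loop and distal tubule markers in 1 of 8 and endothelial markers in 1 of 8. Limma and limma-voom called 0 leukocyte and 0 erythroid markers (0 and 0 below an unadjusted p of 0.05). Leaving out 1 library gave 0 to 4 called proximal tubule, 4 to 5 nephron progenitor, 0 to 5 stromal and mural, 0 to 2 collecting duct, 0 to 6 endothelial and 1 to 3 podocyte markers. Without rapamycin 2 these counts were 0, 4, 0, 1, 0 and 1 in that order. The part of these cell types in the rise of the HSP70 genes was not tested.

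Few genes were called in the other chaperone families. Beyond the 10 genes, 9 HSP70, HSP110 and HSP90 relatives held 0 called genes against mutant vehicle (2 below an unadjusted p of 0.05, and limma-voom also called 0), led by Hspa12b, an endothelial HSP70 relative (0.38 ± 0.13, limma adjusted p = 0.263). Against control vehicle 2 of the 9 rose, Hspa4l and Hspa12b. Hspa4l, an HSP110 relative, had 738, 921 and 766 normalized counts in mutant rapamycin libraries, 806, 804 and 660 in mutant vehicle libraries, and 442, 438 and 314 in control vehicle libraries. Both mutant groups lay above all controls, a separation whose share over all tested genes was not counted. The log2 fold changes against control vehicle were 1.03 ± 0.17 in mutant rapamycin (limma, adjusted p = 0.00958) and 0.94 ± 0.17 in mutant vehicle (limma, adjusted p = 0.0217). The first call was lost without rapamycin 2 (adjusted p = 0.0513), the other without mutant 2 (0.132) or control 2 (0.0622). Hspa12b rose by 0.56 ± 0.13 against control vehicle (limma, adjusted p = 0.0388), a call kept in 2 of 9 fits that left out 1 library. Endothelial markers moved in the same comparison, where 2 of 8 rose (Kdr, 1.00 ± 0.19, limma adjusted p = 0.0183, and Flt1, 1.16 ± 0.24, limma adjusted p = 0.0263) and 1 fell (Cldn5, -0.80 ± 0.19, limma adjusted p = 0.044), with a median of 0.50. These 3 calls became 0 without rapamycin 2 and 0 without control 2. The summed endothelial markers were 24589 to 32939 normalized counts in mutant rapamycin, 17787 to 22805 in mutant vehicle and 19136 to 22051 in control vehicle libraries, and their part in the rise of Hspa12b was not tested. In mutant vehicle against control vehicle 1 of the 9 was called in the fit of all 9 libraries. In fits of these 2 groups alone 3 were called with the replicate block and 0 without it.

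In the 7 remaining chaperone lists limma and limma-voom called 0 genes in each of the 3 comparisons. Against mutant vehicle the medians were -0.06 for 19 J-domain co-chaperones, 0.18 for 6 tested of 9 small heat shock proteins, 0.02 for 15 TRiC chaperonin and prefoldin subunits, and 0.01 for 22 co-chaperones and nucleotide exchange factors. They were 0.04 for 21 endoplasmic reticulum chaperones and unfolded protein response genes, 0.01 for 12 mitochondrial chaperones and proteases, and 0.03 for 7 tested of 9 heat shock factors and regulators. In the order of these lists, the number with an unadjusted p under 0.05 was 3, 1, 0, 0, 1, 0 and 1. The genes with the smallest p were Dnajc2 (-0.42 ± 0.13), Hspb11 (0.42 ± 0.15), Cct7 (0.09 ± 0.15), Bag3 (0.23 ± 0.11), Serpinh1 (0.40 ± 0.16), Dnajc19 (-0.32 ± 0.16) and Hsf4 (-1.30 ± 0.48).

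Bag3, an HSF1 target that releases clients from HSP70, came closest to a call against control vehicle. It had 1452, 1309 and 1353 normalized counts in mutant rapamycin libraries, 1174, 1093 and 1251 in mutant vehicle libraries, and 962, 1012 and 1044 in control vehicle libraries. The 3 groups did not overlap, but the share of all tested genes whose groups separate so was not counted. The log2 fold change against control vehicle was 0.45 ± 0.11 (limma, adjusted p = 0.0525), called in 0 of 9 fits that left out 1 library. In the same comparison the smallest p of the other lists belonged to Dnajc9 (-0.50 ± 0.15), Cryab (-0.54 ± 0.21), Tcp1 (-0.21 ± 0.12), Ddit3 (0.70 ± 0.19), Dnajc19 (-0.42 ± 0.16) and Hsf4 (-1.10 ± 0.48). The number with an unadjusted p under 0.05 was 4, 1, 0, 1, 2, 1 and 1 over the 7 lists.

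In mutant vehicle against control vehicle, log2 fold changes were below 0 for all 15 TRiC and prefoldin genes (median -0.18) with 0 at an unadjusted p under 0.05. Of the 15, 0 were positive in mutant rapamycin against control vehicle as well (median -0.13), a comparison that shares the control libraries. In mutant vehicle against control vehicle, 1, 1, 0, 2, 0 and 0 genes of the other 6 lists, in order, had an unadjusted p under 0.05. The smallest p belonged to Dnajb13 (1.31 ± 0.53), Cryab (-0.79 ± 0.21), Tcp1 (-0.25 ± 0.12), Bag3 (0.22 ± 0.11), Herpud1 (0.58 ± 0.16), Htra2 (-0.16 ± 0.14) and Hsf2bp (-0.44 ± 0.50). In fits of these 2 groups alone, 1 small heat shock protein and 2 endoplasmic reticulum genes were called with the replicate block, and 0 of either list without it. They included Cryab, the small heat shock protein αB-crystallin, which was lower in mutants (limma, adjusted p = 0.00233), and Herpud1, an endoplasmic reticulum stress gene, which was higher (limma, adjusted p = 0.00457). Cryab was also called with the replicate block in the fit of all 9 libraries (limma, adjusted p = 0.0316).

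**Figure D5:**
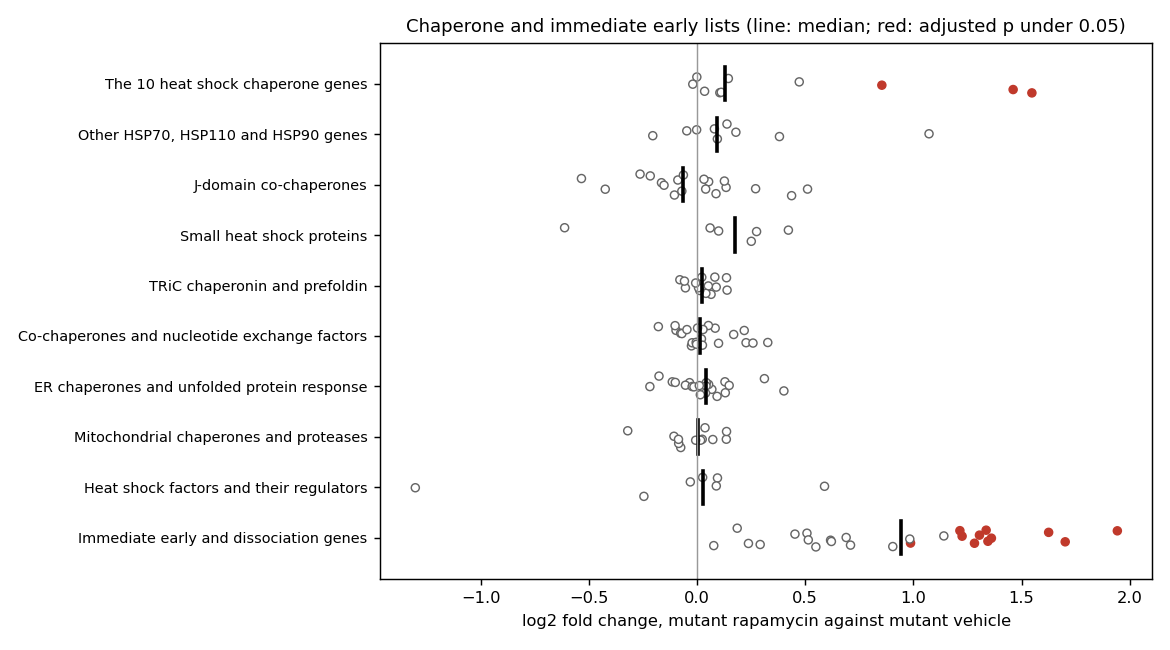
Log2 fold change in mutant rapamycin against mutant vehicle libraries (x axis) of every tested gene of the 10 heat shock chaperone genes, 8 other chaperone lists and the immediate early list, 1 point a gene, with a line at each median. Red points, with an adjusted p under 0.05, are the 3 heat shock genes and 11 immediate early genes.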

How the data were processed

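RNA of sorted cells from 9 samples was sequenced with a stranded mRNA kit and 75 cycles, per the labels' protocols. The submitters' processing notes name cutadapt 1.18, TopHat2 2.1.1, HTSeq 0.6.0, DESeq2 1.22.1 and the GRCm38 build. The authors deposited 1 table of raw gene counts, normalized counts (counts divided by size factors) and a comparison's log2 fold change, p-value and adjusted p-value for each gene. Normalized counts in the deposited table equalled raw counts divided by 1 size factor a library (0.874 to 1.19). Of 54838 genes, 6252 carry a question mark in place of values and were not used, and 24539 had a normalized count.

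Tests used limma 3.58.1 with statmod 1.5.0 in R 4.3.3 (trend and robust options) on log2(normalized count + 1), with all 9 libraries in 1 fit of 3 group means. A fold change on this scale understates the change of low genes. Genes needed a mean of at least 5 (19656 genes), and Benjamini-Hochberg adjustment ran over all of them, with a threshold of 0.05. The edgeR and DESeq2 count models were not run, because marked cells kept the whole table from being handled as plain counts. Limma-voom and trimmed mean of M values scaling did use the raw counts of genes with a normalized count. Replicates of a group differed by far more than counting noise (lowest chi-square per degree of freedom 17.3).

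Deviations of same-numbered mutant and control vehicle libraries correlated at 0.43, 0.14 and 0.45, and those of differently numbered ones at -0.45 to 0.065. Each deviation was taken from its group mean, so the 3 of a group sum to 0 and these 2 sets of correlations are not independent. Some differently numbered libraries of other groups correlated as highly (control 1 with rapamycin 2 at 0.47, control 3 with rapamycin 1 at 0.39). The pairing is therefore uncertain, and the numbers were used as a block only as an alternative. Alternatives were other pseudocounts (0.5 and 5), no filter or a mean of at least 20, trimmed mean of M values scaling, limma-voom, fits of 2 groups, the replicate block, and leaving out each library, or control 1 with rapamycin 2. The block within 2 groups was chosen after seeing the data.

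The 10 genes, the lists and the tests were chosen with earlier results of these data known. The text names all 10 genes and, from each chaperone and immediate early list, up to 3 called genes of smallest p in each comparison, or else the gene of smallest p, and the 3 genes most like Hspa1a, Hspa1b, Hspa8 and Hsp90aa1. Gm20481 and the levels of Jun were added after their values were seen. The cell type marker lists are given as counts, a departure from that rule, with the called endothelial markers, Col3a1 and Des named. Promoters come from RefSeq GRCm38.p6, and transcripts from GENCODE M21.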

Additional observations from a re-analysis of the deposited data

How the results depend on the processing

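The rise of Hspa1a, Hspa1b and Dnajb1 kept its direction in all 19 alternatives of both rapamycin comparisons, and against control vehicle limma called all 3 in each. Against mutant vehicle, the 3 called members became 1 without both control 1 and rapamycin 2 and 0 (3 at an unadjusted p under 0.05) with a replicate block fitted in the 2 groups alone, and leaving out 1 library gave 0 to 3. In that comparison 59 genes were called in all, 206 with the replicate block, 22 without both libraries, 7 with the block in the 2 groups, and 0 to 200 on leaving out 1 library. Against control vehicle 637 genes were called, 1090 with the replicate block, 418 with it in the 2 groups, and 175 to 1131 on leaving out 1 library. In mutant vehicle against control vehicle 279 genes were called, 99 in a fit of the 2 groups alone, 1398 with the replicate block there, and 81 to 336 on leaving out 1 library, with 0 members in each. Deviations of same-numbered libraries of the rapamycin group and either vehicle group correlated at -0.34 to 0.22, so the block there rests on numbers alone. Log2 fold changes of genes that were not called turned sign 40 times on leaving out 1 library and 9 times in other settings. Without both control 1 and rapamycin 2 they became 0.0058 for Hsp90aa1, 0.046 for Hspd1 and 0.037 for Hsf1 in mutant vehicle against control vehicle, 0.082 for Hspa8 in mutant rapamycin against mutant vehicle, and 0.13 for Hspd1 and 0.077 for Hspe1 in mutant rapamycin against control vehicle. With trimmed mean of M values scaling Hspa8 was 0.0088 in mutant rapamycin against mutant vehicle and Hspd1 0.013 in mutant rapamycin against control vehicle, where limma-voom gave 0.00068 for Hspd1. On leaving out 1 library, values that turned sign in mutant vehicle against control vehicle ran from -0.080 to 0.23 for Hspa1a, -0.011 to 0.36 for Hspa1b, -0.055 to 0.11 for Hspa8, -0.40 to 0.39 for Hsph1, -0.40 to 0.12 for Hsp90aa1, -0.084 to 0.13 for Dnajb1, -0.0059 to 0.36 for Hspb1, -0.27 to 0.11 for Hspd1 and -0.12 to 0.037 for Hsf1. In mutant rapamycin against mutant vehicle they ran from -0.10 to 0.082 for Hspa8, -0.11 to 0.41 for Hsp90aa1, -0.20 to 0.17 for Hspb1 and -0.11 to 0.27 for Hspd1. In mutant rapamycin against control vehicle they ran from -0.083 to 0.10 for Hspa8, -0.037 to 0.11 for Hsp90aa1, -0.046 to 0.081 for Hspd1, -0.12 to 0.052 for Hspe1 and -0.0053 to 0.15 for Hsf1. The cause of these shifts was not tested. Hspa4l lost its call in mutant vehicle against control vehicle when only these groups were fitted (adjusted p = 0.0844), and Bag3 gained one against control vehicle with a mean of at least 20, with trimmed mean scaling and with the replicate block (adjusted p = 0.0439, 0.0496 and 0.0411). Relaxing the motif from 3 units to 2 raised the members with a match from 1 to 5 of 7 windows. The edgeR and DESeq2 alternatives were not run.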
